A study of Mus musculus with 18 samples.

Results

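Major urinary proteins (MUPs) are small secreted lipocalins, barrel-shaped carriers of hydrophobic molecules, which the mouse liver makes in large amounts and the kidney passes into urine. In urine they carry scents that other mice read, and MUP20 (darcin) is itself a male pheromone. Their genes are expressed more in male than in female liver. The pulsed growth hormone of males acts through its receptor (GHR), the kinase JAK2 and the transcription factor STAT5B to maintain many of them, with androgen, thyroid hormone and glucocorticoid also contributing. The 9 genes Mup1, Mup2, Mup3, Mup7, Mup10, Mup11, Mup17, Mup20 and Mup21 were taken by their symbols from the 19057 symbols of a table of liver RNA-seq values, in all 18 libraries of the study. They were chosen with their values in these libraries known, so their differences between groups are a description. Where calls of a test across all genes are given for them, nothing is read from those calls.

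The study asked how microbiota transplants act on the liver after streptozotocin (STZ), a toxin that kills the insulin-producing cells of the pancreas. The livers came from 10-week-old mice of the outbred ICR strain, with 3 mice in each of 6 groups. The methods of the study give males for the groups that they describe. Con mice received a regular diet and saline, and STZ mice were injected with STZ in a single dose. A10-FMT mice received STZ and then oral microbiota from donors that had been dosed with AOS (alginate oligosaccharide) at 10 mg/kg, and Con-FMT mice received STZ and then microbiota from control donors. The donors' small intestine contents were pooled within each donor group, so each transplanted group stands for 1 pool of microbiota. The labels hold 2 further groups, AOS (AOS at 10 mg/kg) and STZ+AOS (STZ with AOS at 10 mg/kg). The methods do not describe these 2 groups and so do not give the sex of their mice. Blood glucose of the individual mice was not analysed here.

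The values are RPKM (reads per kilobase of transcript, scaled by library size), so that levels can be compared between genes per unit of length. A rough estimate of relative depth, from steps between the lowest values of 43 genes, was 0.934 to 1.083. It used only values near each gene's lowest step, so it is drawn towards 1 and could not show a large difference in depth. Of the values above 1 step, 67.6% lay within 0.2 of a whole step. The number of reads is unknown. The RPKM of all genes summed to 621121 to 806937 per library, and 9955 to 10409 genes reached 1 RPKM. Con mouse 3 and AOS mouse 3 stood apart in a different way from the rest. Of the 104 genes with a mean of at least 5 RPKM that spread by at least 1 on the log2 scale within Con, 103 (99.0%) had mouse 3 between mice 1 and 2, at a median position of 0.473 of the way between them (interquartile range 0.427 to 0.515). In AOS this held for 89 of 95 genes (93.7%; position 0.641, 0.591 to 0.703), whereas in the other 4 groups the share for any mouse was 9.84% to 67.4%. Whether these 2 libraries are separate mice was not tested, and the counts of calls in STZ against Con and the AOS medians are also given without them. Without Con mouse 3, 25.9% of all genes were called in STZ against Con in place of 38.5%, and the lipocalin genes Ptgds, C8g and Ambp lost their calls. The other genes outside the Mup family named below with a call and its size in STZ against Con kept it. Hepatocyte markers (12 genes, such as albumin) summed to 48021 to 70802 RPKM in every library, with none at 0. Single markers differed: in STZ against Con 2 were called higher and 3 lower, beside 33% and 5.52% of all genes. Their log2 differences ran from -1.60 to 1.37. All 6 markers of pancreatic acinar cells reached 1 RPKM in STZ+AOS mouse 3 (67.9 RPKM summed, of which chymotrypsinogen Ctrb1 gave 36.5), while the other libraries summed to 0.04 to 1.96 RPKM. The part of these pancreatic transcripts in the levels below was not tested.

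The Mup genes lie side by side on chromosome 4. In GRCm38 (GENCODE M21) 22 protein-coding Mup genes and 26 pseudogenes occupied 2.19 Mb, from 59956804 to 62150863, and all 9 members were on the minus strand. Mup7 lies at chromosome 4, 60066469 to 60070475, Mup2 at 60135932 to 60154289, Mup1 at 60498012 to 60501960, Mup10 at 60578260 to 60582199, Mup11 at 60658466 to 60662411 and Mup17 at 61591929 to 61595871. Mup20 lies at 62050234 to 62054158, Mup3 at 62083476 to 62087342 and Mup21 at 62147932 to 62150863, at the distal end of the cluster.

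How far a read can be assigned to 1 Mup gene depends on how much the copies differ. The stretch below is shown because it is the 60 bases, without gaps, in which the 6 close copies (Mup1, Mup2, Mup7, Mup10, Mup11 and Mup17) differed most, at 3 positions. It covers bases 13 to 72 of the Mup1 coding sequence in GENCODE M21, which encode most of the signal peptide, cleaved off before secretion, and the first residues after it, and capitals mark differences from Mup1. Mup10, Mup11 and Mup17 have the same 60 bases as Mup2.
Mup1: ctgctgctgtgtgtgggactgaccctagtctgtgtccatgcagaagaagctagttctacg
Mup2: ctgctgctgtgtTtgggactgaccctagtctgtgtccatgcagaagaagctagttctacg
Mup7: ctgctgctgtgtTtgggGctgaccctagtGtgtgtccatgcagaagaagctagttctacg
Mup20: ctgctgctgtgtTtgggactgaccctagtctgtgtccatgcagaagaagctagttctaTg
Mup3: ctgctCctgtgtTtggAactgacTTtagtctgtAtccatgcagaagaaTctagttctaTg
Mup21: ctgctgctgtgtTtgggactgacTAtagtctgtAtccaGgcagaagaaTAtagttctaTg
Over the whole coding sequence, pairs among the 6 close copies were 98.3% to 99.4% identical (15 pairs), and pairs of a close copy with Mup3, Mup20 or Mup21 were 82.6% to 91.3% identical (18 pairs). Of all 40-base words in the annotated transcripts, 65.7% (Mup1) to 86.7% (Mup7) also occurred in another Mup gene for the close copies. The same share was 13.9% for Mup20, 19.2% for Mup3 and 24.1% for Mup21. The repeat-hit option that the methods give for the aligner reports every equal placement of a read, but how such reads entered the RPKM is not given in the sources used here. The levels of Mup1, Mup2, Mup7, Mup10, Mup11 and Mup17 are therefore uncertain as levels of separate genes. By exact shared words, Mup3, Mup20 and Mup21 are the members least exposed to shared reads. Mup3 and Mup21 were 94.7% identical to each other, and placements with the mismatches that the aligner allowed were not counted.

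The genes also share promoter sequence. RefSeq (GRCm38.p6) held an entry for 7 of the 9 members (Mup2, Mup3, Mup7, Mup10, Mup11, Mup17 and Mup21). The longest word common to the 250 bases before the start of all 7 was 13 letters long, and it is shown in capitals within 88 bases on the minus strand.
Mup2 (chr4:60139995-60140082): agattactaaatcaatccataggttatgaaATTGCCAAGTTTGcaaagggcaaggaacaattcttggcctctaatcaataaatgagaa
Mup10 (chr4:60582295-60582382): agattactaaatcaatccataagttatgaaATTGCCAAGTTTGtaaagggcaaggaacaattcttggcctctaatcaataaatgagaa
Mup7 (chr4:60070480-60070567): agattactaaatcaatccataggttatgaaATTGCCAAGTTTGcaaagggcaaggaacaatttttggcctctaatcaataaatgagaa
Mup3 (chr4:62087402-62087489): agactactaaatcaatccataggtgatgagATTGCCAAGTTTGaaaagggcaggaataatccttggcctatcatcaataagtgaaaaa
Mup21 (chr4:62150920-62151007): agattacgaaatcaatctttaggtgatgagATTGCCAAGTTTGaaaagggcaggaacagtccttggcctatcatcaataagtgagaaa
Mup11 and Mup17 have the same 88 bases as Mup2. The stretches overlap no exon annotated in GENCODE M21. On either strand the 13-letter word occurred in 12 of 27025 promoters of the same length (0.0444%), all of them of Mup genes. The letters TATATAAG were found in 5 of the 7 members (Mup2, Mup3, Mup10, Mup17 and Mup21), against 0.992% of all promoters. The spaced palindrome TTCNNNGAA, which STAT proteins bind, was found in 0 of 7 of these windows and in 7.18% of all promoters. A match or its absence describes the letters of these windows only.

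In Con livers the Mup genes were among the most abundant transcripts. Mup1 was at 68877, 60466 and 55703 RPKM in Con mice 1 to 3 and ranked first of all genes in each of them, and Mup10 was at 58988, 36028 and 40393 RPKM. The 9 members together held 26.7%, 19.2% and 20.6% of the RPKM sum of all genes. The least abundant member was Mup21, at 1371, 1841 and 1564 RPKM. The spread between the Con mice differed among members, with a coefficient of variation of 5.14% for Mup3 and 10.8% for Mup1 but 47.0% for Mup20, 52.8% for Mup17 and 56.3% for Mup2. Con mouse 1 had the highest value of 7 members (all but Mup3 and Mup21).

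**Figure D1:**
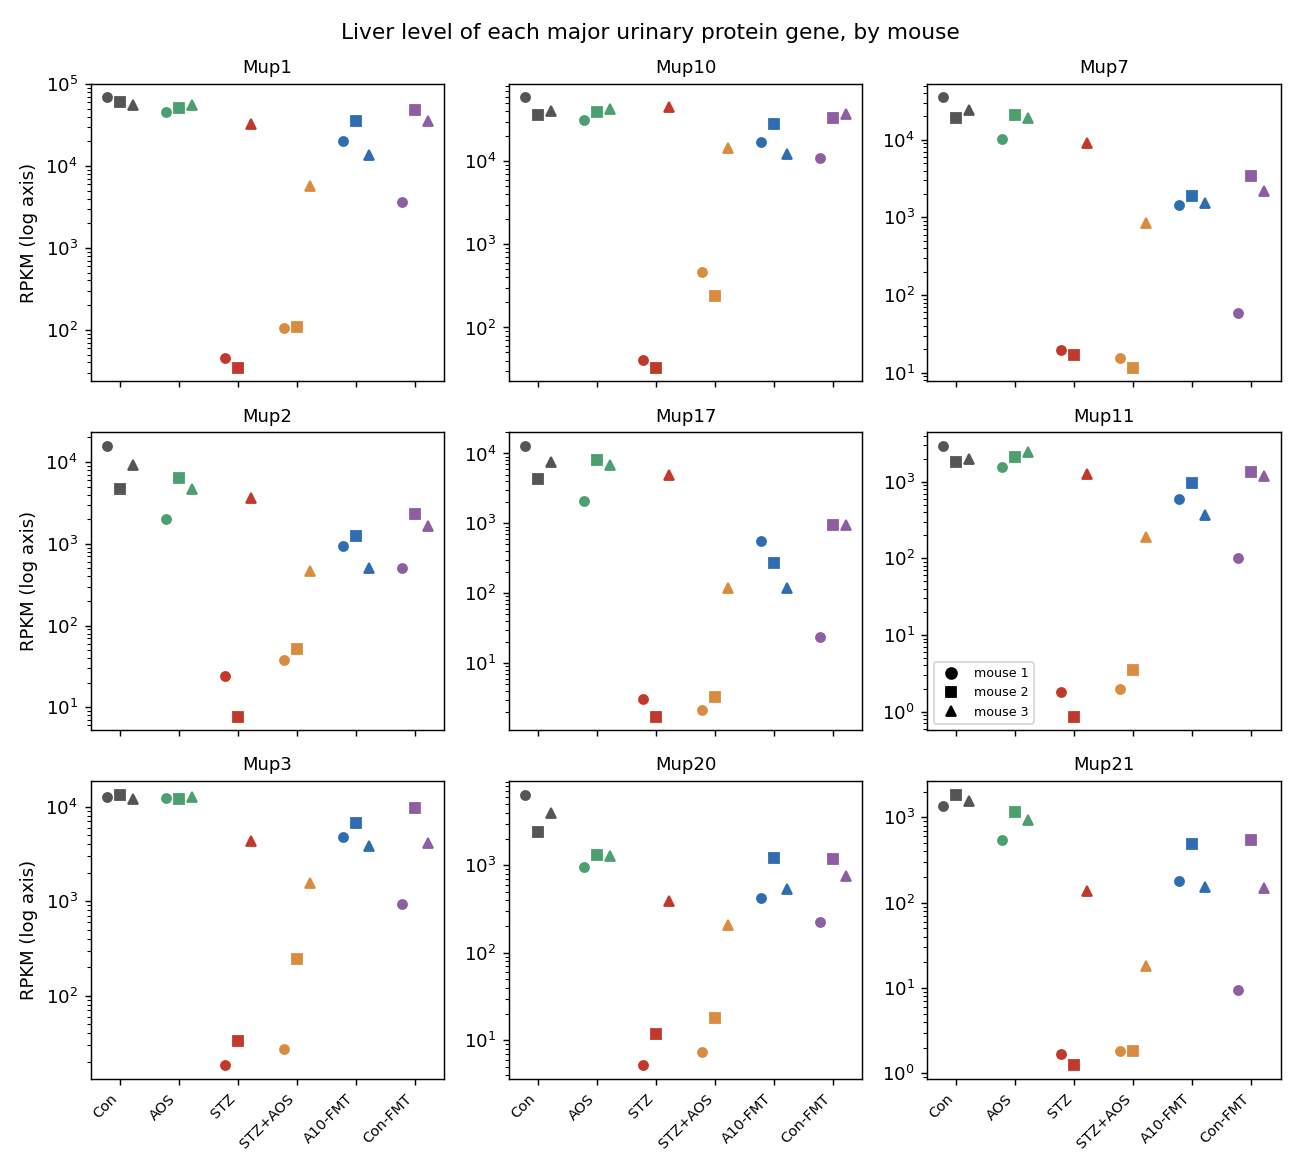
Level of each of the 9 Mup genes in RPKM (log axis, a separate scale per gene) in the 6 groups, with 1 symbol per mouse. STZ mice 1 and 2 lie at the bottom of every panel or beside STZ+AOS mice 1 and 2, and STZ mouse 3 lies far above them.

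STZ mice 1 and 2 had almost no Mup transcripts, and STZ mouse 3 had many. Mup1 was at 45.8 and 34.4 RPKM in STZ mice 1 and 2 and at 32146 RPKM in STZ mouse 3, and it ranked 1526th, 1925th and the second among all genes. Mup10 was at 41.0, 32.6 and 44991 RPKM. In STZ mouse 3 this level lay within the Con range. Mup7 was at 19.7, 16.7 and 9141 RPKM, against 19118 to 35381 RPKM in Con. Mup17 was at 3.11, 1.72 and 4893 RPKM, against 4261 to 12820 RPKM in Con. Mup11, at 1825 to 2943 RPKM in Con, was at 1.81, 0.86 and 1272 RPKM in STZ. Thus STZ mouse 3 lay below all Con mice in Mup1, Mup7 and Mup11 and inside their range in Mup10 and Mup17.

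The members that share few reads with other copies showed the same division of the STZ mice. Mup3 was at 12755, 13391 and 12081 RPKM in Con and at 18.3, 33.1 and 4315 RPKM in STZ. Mup20 was at 6428, 2436 and 3988 RPKM in Con and at 5.17, 11.96 and 389 RPKM in STZ. Mup21 was at 1371 to 1841 RPKM in Con and at 1.70, 1.24 and 137 RPKM in STZ, and for all 3 genes every STZ mouse lay below every Con mouse. In STZ mouse 3, Mup20 and Mup21 were at 9.08% and 8.62% of their Con means, while Mup10 was at 99.7%, Mup17 at 59.8% and Mup1 at 52.1%. In STZ mice 1 and 2 every member was at 0.0210% to 0.279% of its Con mean. The 9 members held 0.0245%, 0.0222% and 14.7% of the RPKM sum in STZ mice 1 to 3.

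On the log2(RPKM + 1) scale, the fitted difference of STZ minus Con ran from -7.61 (Mup17) to -6.49 (Mup3), with a median of -6.98 over the 9 members and 0.21 over all 10602 genes tested. These values average mice that differ by up to 2845-fold (Mup17), and without STZ mouse 3 the median was -9.91. All 9 members were called lower at an adjusted p under 0.05 (limma, Benjamini-Hochberg over all genes), beside 38.5% of all genes called and 5.52% called lower. The groups did not overlap for 7 members (all but Mup10 and Mup17), beside 6.98% of all genes lower without overlap. The members were chosen on this contrast, and nothing is read from these counts. The count was 4 without Con mouse 1, STZ mouse 1 or STZ mouse 2 (24.2%, 30.2% and 24.9% of all genes called), and 7 without Con mouse 3 and AOS mouse 3 (25.9% of all genes called). In bulk liver, fewer cells that express a gene and less RNA per cell cannot be told apart.

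**Figure D2:**
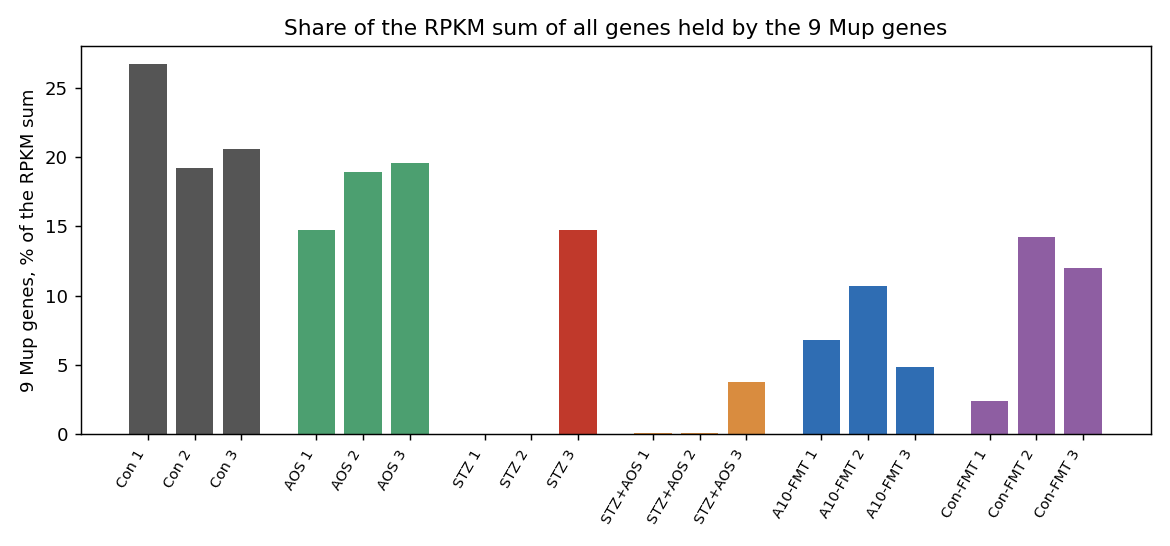
Share of the RPKM sum of all genes held by the 9 Mup genes in each of the 18 libraries (percent, bars from 0). The share was 19.2% to 26.7% in Con, under 0.03% in STZ mice 1 and 2, 14.7% in STZ mouse 3 and 2.43% to 14.2% in the transplanted groups.

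After transplantation, all 6 mice had higher levels of every member than STZ mice 1 and 2. All 9 members in A10-FMT and 8 in Con-FMT lay below Con without overlap, beside 7.17% and 5.22% of all genes. The exception was Mup10 in Con-FMT mouse 3, just above the lowest Con value. The median fitted log2 difference of the members from Con was -2.61 and -2.75, beside 0.16 and 0.19 over all genes. With limma 0 of 9 members were called in either contrast against Con, and 0 and 3 had an unadjusted p under 0.05. The fit pools the spread of all its groups, STZ mouse 3 included. The shares of all genes at these thresholds are not given here, and nothing is read from these counts. Mup1 was at 20009, 35673 and 13708 RPKM in A10-FMT and at 3655, 47918 and 35476 RPKM in Con-FMT. Mup10 was at 17217, 27898 and 12270 RPKM in A10-FMT and at 10838, 33573 and 36686 RPKM in Con-FMT. Con-FMT mouse 1 was therefore the lowest of the transplanted mice in both genes. In this library erythroid markers summed to 9168 RPKM, against 2344 and 3336 RPKM in the other Con-FMT mice and at most 2863 RPKM in the other groups, and kidney markers to 5.23 RPKM, against at most 1.17 RPKM in any other library, and their part in its Mup levels was not tested. Mup3 was at 4827, 6675 and 3853 RPKM in A10-FMT and at 937, 9733 and 4161 RPKM in Con-FMT. Mup20 was at 423, 1211 and 533 RPKM in A10-FMT and at 226, 1181 and 763 RPKM in Con-FMT, all below the lowest Con value. The members' share of the RPKM sum was 6.81%, 10.7% and 4.89% in A10-FMT and 2.43%, 14.2% and 12.004% in Con-FMT.

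Against STZ, the median fitted log2 difference of the members was 4.66 in A10-FMT and 4.23 in Con-FMT, beside -0.05 and -0.03 over all genes. Both comparisons share the STZ mice. With limma 0 of the 9 members were called in either (0.226% and 0.00943% of all genes were called), and 6 of 9 passed an unadjusted p under 0.05 in each (20.9% and 20.1% of all genes). STZ mouse 3 decided these counts. Without it the medians were 6.59 and 6.41, and all 9 members were called higher in both, beside 12.7% and 15.5% of all genes called. The values of this mouse were known when the members were chosen, and nothing is read from either set of counts. The values in A10-FMT did not overlap those in STZ for 2 members, Mup20 and Mup21, beside 7.61% of all genes higher without overlap. In Con-FMT all 9 overlapped, beside 8.32% of all genes higher without overlap.

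The 2 transplanted groups were not separated by any member. All 9 overlapped between A10-FMT and Con-FMT, beside 8.92% of all genes without overlap. The fitted log2 difference of A10-FMT minus Con-FMT ran from -0.57 (Mup2) to 1.33 (Mup21), with a median of 0.14. Its SE was 1.23 (Mup20) to 2.38 (Mup17), so that a difference of several fold either way could not have been detected. With limma 0 of 10602 genes were called in this contrast (303 genes or 2.86% had an unadjusted p under 0.05, 0 of them members). Without Con-FMT mouse 1, the library with the high erythroid and kidney markers, the median turned to -0.95.

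The members did not stand at a common fraction of their Con level in the transplanted mice. Group means of Mup10, Mup3, Mup1 and Mup11 were at 42.4%, 40.2%, 37.5% and 28.4% of the Con mean in A10-FMT and at 59.9%, 38.8%, 47.0% and 38.5% in Con-FMT. Mup7 was at 6.16% and 7.24%, Mup17 at 3.92% and 7.80%, and Mup2 at 9.13% and 15.2%. Mup20 was at 16.9% in both and Mup21 at 17.1% and 14.5%. Mup7 was at 1442, 1900 and 1520 RPKM in A10-FMT and at 59.1, 3448 and 2205 RPKM in Con-FMT, against 19118 RPKM or more in Con and 9141 RPKM in STZ mouse 3. Mup17 was at 568, 274 and 121 RPKM in A10-FMT and at 23.3, 957 and 934 RPKM in Con-FMT. Mup2 was at 940, 1262 and 505 RPKM and at 505, 2339 and 1667 RPKM in the same groups. In all 3 genes every transplanted mouse lay below STZ mouse 3, whereas in Mup1 and Mup3 several transplanted mice lay above it.

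The ratio of Mup1 to Mup7 within a library does not depend on scaling between libraries. It was 1.95, 3.16 and 2.28 in Con, 2.32, 2.06 and 3.52 in STZ, and 4.39, 2.43 and 2.93 in AOS. In A10-FMT it was 13.9, 18.8 and 9.02 and in Con-FMT 61.9, 13.9 and 16.1, with all 6 transplanted mice above every Con, AOS and STZ mouse. The ratio was 6.80, 9.44 and 6.71 in STZ+AOS. The ratio of Mup1 to Mup17 was 5.37 to 14.2 in Con, 33.0 to 48.9 in STZ+AOS and 35.2 to 157 in the transplanted mice. That of Mup1 to Mup3 was 4.52 to 5.40 in Con and 3.56 to 8.53 in the transplanted mice. For Mup1 to Mup20 it was 10.7 to 24.8 in Con and 16.2 to 47.3 in the transplanted mice. For Mup1 to Mup21 it was 32.8 to 50.2 in Con and 73.7 to 385 in the transplanted mice. The ratio to Mup21 was 26.9 to 234 in STZ and 44.4 to 83.4 in AOS. Mup1, Mup7 and Mup17 are close copies whose reads may be shared, and the part of read assignment in these ratios was not tested.

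**Figure D3:**
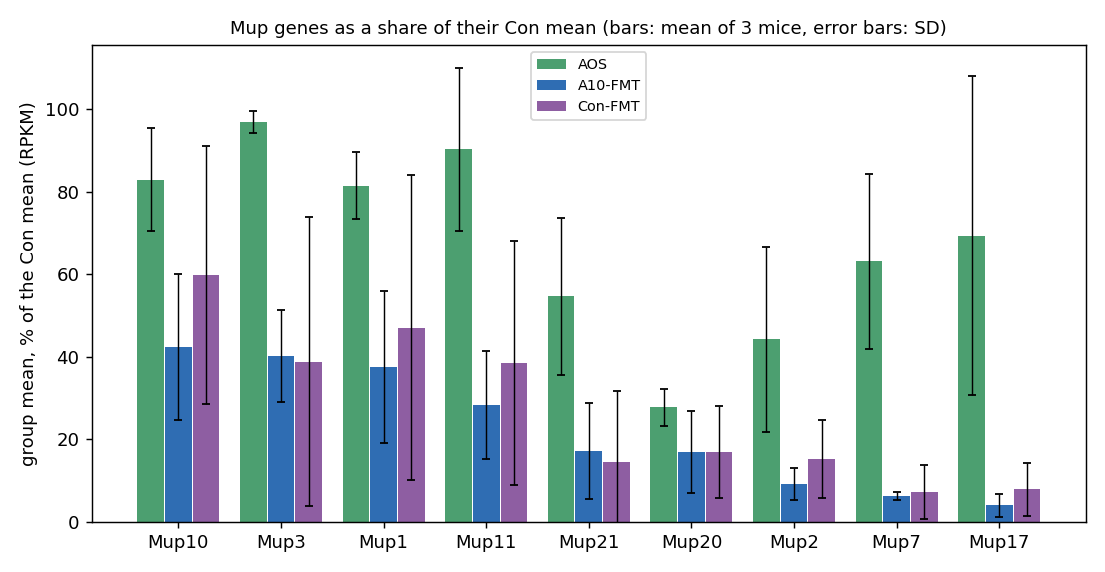
Mean level of each Mup gene in AOS, A10-FMT and Con-FMT as a percent of its Con mean (3 mice each, error bars SD). Mup10, Mup3, Mup1 and Mup11 are at 28.4% to 59.9% in the transplanted groups and Mup2, Mup7 and Mup17 at 3.92% to 15.2%.

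**Figure D4:**
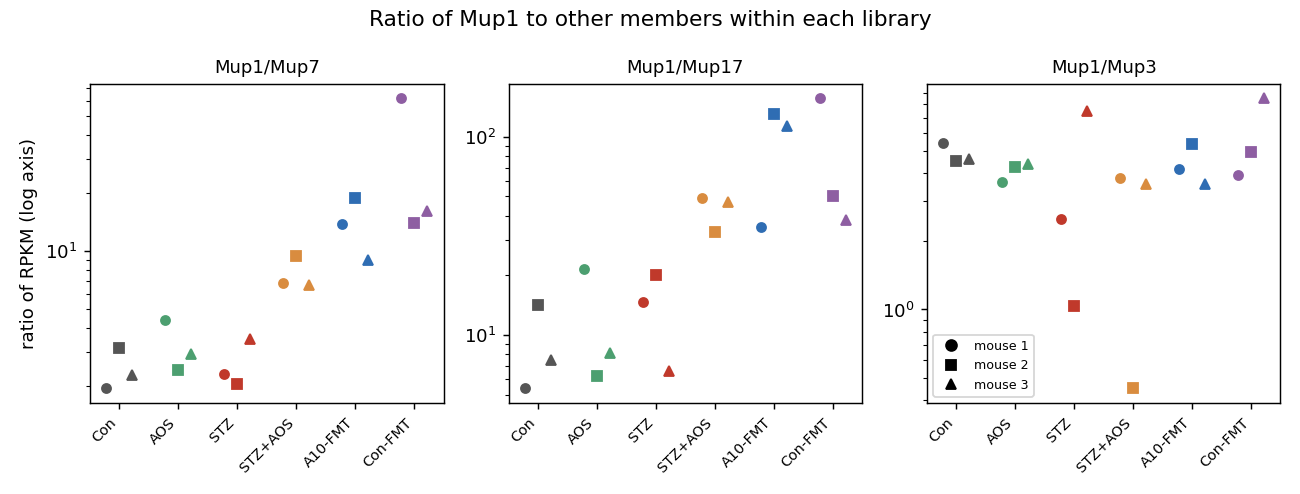
Ratio of the RPKM of Mup1 to that of Mup7, Mup17 and Mup3 in each library (log axis, 1 symbol per mouse). The ratio to Mup7 was 9.02 to 61.9 in the transplanted mice, 6.71 to 9.44 in STZ+AOS and 1.95 to 3.16 in Con. The ratio to Mup3 overlapped between Con and the transplanted mice.

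In the AOS group, which received no STZ, the means of the members were at 27.8% to 96.8% of the Con mean. Mup1 was at 45112, 50505 and 55099 RPKM and Mup3 at 12420, 11962 and 12628 RPKM in AOS mice 1 to 3. Mup20 was the member farthest below Con, at 968, 1313 and 1286 RPKM or 27.8% of the Con mean, with no overlap. Mup7 was at 10274, 20771 and 18799 RPKM, with AOS mouse 2 inside the range of Con and mice 1 and 3 below it. Mup2 stood at 44.2% and Mup21 at 54.6% of the Con mean. Mup21 did not overlap Con either, and neither did Mup1, whose highest AOS value lay just under the lowest Con value. The median fitted log2 difference of AOS minus Con was -0.61 (-0.83 without Con mouse 3 and AOS mouse 3), and Mup20 had the largest, at -1.75 (SE 1.27). With those 2 libraries left out Mup20 was at -1.81. With limma 0 of 9 members were called, and 0 had an unadjusted p under 0.05. Of all genes 0.00924% were called and 7.22% had an unadjusted p under 0.05. Groups did not overlap for 3 members, beside 5.24% of all genes lower without overlap.

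The levels in STZ+AOS overlapped those in STZ for every member. Mup1 was at 104, 109 and 5607 RPKM in STZ+AOS, Mup10 at 467, 237 and 14524 RPKM, Mup3 at 27.4, 242 and 1565 RPKM and Mup20 at 7.40, 18.1 and 208 RPKM. The remaining members were at 1.83 to 52.05 RPKM in STZ+AOS mice 1 and 2 and at 17.9 (Mup21) to 835 RPKM (Mup7) in mouse 3. Mouse 3 of this group, the mouse with pancreatic transcripts, was the highest in every member and lay below the lowest A10-FMT value in 8 of them (all but Mup10). The members held 0.104%, 0.105% and 3.79% of the RPKM sum. The median log2 difference of STZ+AOS minus STZ was 0.04, with a range of -1.69 (Mup17) to 1.56 (Mup10). It was 2.57 without STZ mouse 3 and -1.73 without STZ+AOS mouse 3. Of all genes 5.13% did not overlap between the groups. With limma 0 members were called, and 0 had an unadjusted p under 0.05 (0% and 6.07% of all genes). The effect of AOS with STZ minus its effect without STZ had a median of 0.39 over the members, and 0 of 9 members were called or had an unadjusted p under 0.05 (0% and 5.4% of all genes).

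The order of the groups by the summed RPKM of the 9 members was Con (172082 ± 37993, mean ± SD, n = 3), AOS (130722 ± 21371), Con-FMT (66860 ± 44635), A10-FMT (51855 ± 22196), STZ (33728 ± 58159) and STZ+AOS (8292 ± 13200). AOS and Con-FMT, at 106111 to 144587 and 16354 to 101011, were the neighbours in this order whose mice did not overlap. All other neighbours overlapped. Across members the levels moved together, with Pearson's r of log2(RPKM + 1) over the 18 libraries of 0.875 (Mup10 with Mup21) to 0.997 (Mup1 with Mup11) over the 36 pairs, and 0.849 to 0.997 after subtraction of group means. These libraries share their groups, and the close copies may share reads.

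The table held 12 further Mup rows outside the member list. Mup9 was the most abundant of them, at 24857 to 56659 RPKM in Con, 39.0, 20.4 and 25657 RPKM in STZ and 3911 to 8282 RPKM in A10-FMT. The AOS means of Mup12 and Mup14 were 187% and 304% of the Con mean. Those of the remaining outside rows were 25.4% to 82.5%, and those of all 9 members were likewise under 100%. Mup4, Mup5 and Mup6 stayed under 5 RPKM in every library.

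Growth hormone signalling was the first pathway examined beside the members. Of 18 genes listed for this axis 17 were tested and 12 were called in STZ against Con, 9 higher and 3 lower (all genes: 33% higher and 5.52% lower), with a median log2 difference of 0.38. Without Con mouse 3 the calls were 7 higher and 3 lower. Ghr, the growth hormone receptor, was at 170, 236 and 199 RPKM in Con and at 96.6, 72.6 and 146 RPKM in STZ, and it fell by 0.98 on the log2 scale (SE 0.21, adjusted p = 0.0053). In A10-FMT it was at 179, 201 and 191 RPKM and in Con-FMT at 149, 180 and 164 RPKM, above every STZ mouse in both, although neither difference from STZ passed the adjusted threshold (0.91, adjusted p = 0.0721; 0.70, adjusted p = 0.121). Igfals, which stabilises circulating IGF1, also fell in STZ. Igf1 itself, a main product of growth hormone action, differed by -0.17 (SE 0.13, adjusted p = 0.308), and by -0.44 (adjusted p = 0.0288) after median-ratio scaling.

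Socs2 rose in STZ where the receptor fell. Socs2, a STAT5 target that restrains growth hormone signalling, was at 12.9 to 15.6 RPKM in Con and at 47.8, 56.9 and 25.04 RPKM in STZ, a rise of 1.47 (SE 0.35, adjusted p = 0.00784). Cish, another STAT5 target, differed by 0.45 (adjusted p = 0.235), and Stat5b by 0.29 (adjusted p = 0.0591; 0.0428 with all 6 groups in the fit and 0.0288 without STZ mouse 1). Stat5b was called lower in A10-FMT against STZ, by -0.70 (SE 0.11, adjusted p = 0.0354), from 14.6 to 19.5 RPKM in STZ to 8.91 to 10.4 RPKM in A10-FMT. That call was lost without STZ mouse 2 (adjusted p = 0.127), without any one A10-FMT mouse (0.106 to 0.129), without Con mouse 3 and AOS mouse 3 (0.086), with no filter on low values (0.0764) and with only STZ and A10-FMT in the fit (0.222). The genes of the list with the largest rise in STZ were Igfbp1 and Igfbp2, binding proteins of IGF1 (4.16 and 2.68), Cux2, a female-biased liver repressor (2.61), and Irs2, an insulin receptor substrate (1.55). Igfbp1 was at 334, 976 and 190 RPKM in STZ, with mouse 3 the lowest, against 18.1 to 24.0 RPKM in Con. STZ+AOS mouse 3 was at 3757 RPKM in Igfbp1.

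Of 19 genes listed as regulators of Mup expression, 15 were tested and 3 were called in STZ against Con, all higher, beside 33% of all genes. They were Trim24 (1.77), a co-regulator of nuclear receptors, Cebpb (0.82), a bZIP transcription factor, and Hnf4a (0.75), a nuclear receptor of hepatocytes. Trim24 was at 2.31 to 2.64 RPKM in Con and at 16.3, 14.4 and 5.04 RPKM in STZ. With all 6 groups in the fit 5 of the 15 were called, and without Con mouse 3 the count was 3. Stat5b and Bcl6 stand in both the axis and the regulator lists. Bcl6, a repressor that is higher in male liver, was at 5.79 to 7.85 RPKM in Con and at 2.06, 2.85 and 3.72 RPKM in STZ (-1.04, adjusted p = 0.0941) and was named after its values were seen.

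Other genes with sex-biased liver expression moved with the Mup genes or against them. Of 18 male-biased genes 17 were tested and 14 were called in STZ against Con, all lower (5.52% of all genes), with a median log2 difference of -2.77. Elovl3, a fatty acid elongase, was at 209, 228 and 239 RPKM in Con and at 0.19, 0.06 and 12.03 RPKM in STZ (-6.48, SE 0.93, adjusted p = 0.00084). Cyp4a12a, a fatty acid hydroxylase, was at 363 to 387 RPKM in Con and at 0.41, 0.40 and 94.7 RPKM in STZ (-6.04, adjusted p = 0.00952). Hsd3b5, a steroid dehydrogenase, and Selenbp2, a selenium-binding protein, differed by -6.31 and -5.24. In each of these 4 genes STZ mouse 3 was the highest of the STZ mice. In the transplanted mice Cyp4a12a was at 122.9, 174 and 99.98 RPKM in A10-FMT and at 8.03, 204 and 152 RPKM in Con-FMT, with Con-FMT mouse 1 the lowest as for Mup1. Elovl3 stayed at 0.84 to 7.53 RPKM in A10-FMT and at 0.12 to 5.85 RPKM in Con-FMT.

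Of 22 female-biased genes 21 were tested and 18 were called in STZ against Con, all higher (33% of all genes), with a median log2 difference of 3.44. Sult2a1, a steroid sulfotransferase, was at 0.07 to 0.56 RPKM in Con and at 1460, 333 and 16.1 RPKM in STZ (7.33, SE 1.55, adjusted p = 0.00474). The cytochromes P450 Cyp2a4 and Cyp2b9 differed by 6.55 and 5.71. Among the STZ mice Sult2a1 was lowest in mouse 3, the one with the most Mup transcripts. None of the male-biased or female-biased genes was called between either transplanted group and STZ with limma. In A10-FMT 9 of 17 male-biased and 9 of 21 female-biased genes had an unadjusted p under 0.05, beside 20.9% of all genes. In Con-FMT 6 of 17 and 11 of 21 did, beside 20.1% of all genes. In STZ against Con, 12 male-biased and 15 female-biased genes were called without Con mouse 3. Cyp2a4, Cyp2b9 and the Cyp4a12 genes belong to families of near copies that may share reads.

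**Figure D5:**
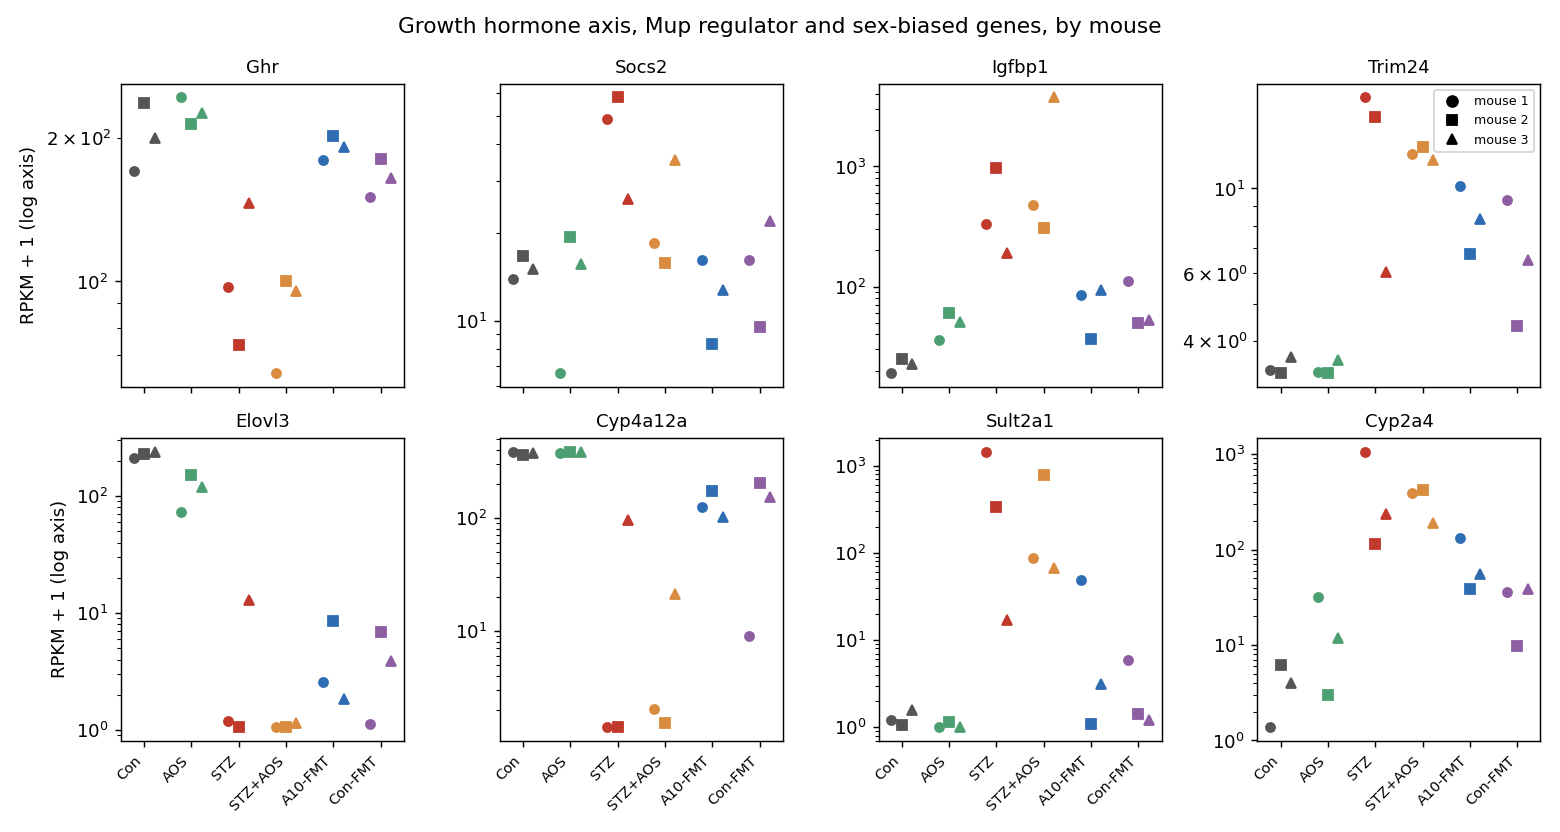
RPKM + 1 (log axis, a separate scale per gene) of 8 genes of the growth hormone axis, of Mup regulation and of sex-biased liver expression, 1 symbol per mouse. STZ mouse 3 lies closer to Con than STZ mice 1 and 2 in Elovl3, Cyp4a12a, Sult2a1, Trim24, Ghr, Socs2 and Igfbp1.

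Other lipocalins were called in both directions. Of 9 tested, 5 were called in STZ against Con, 2 higher and 3 lower, beside 38.5% of all genes called, 33% higher and 5.52% lower. Rbp4, the retinol carrier of blood, and Apom, a lipoprotein-bound carrier, rose by 1.21 (adjusted p = 0.00581) and 0.92 (adjusted p = 0.00325). Ptgds, C8g and Ambp were called lower, Ptgds by -1.08 (adjusted p = 0.041) and C8g by -0.56 (adjusted p = 0.016). The number of calls was 3 with no filter or with only STZ and Con in the fit, 3 without Con mouse 1, 8 without Con mouse 2, 2 without Con mouse 3 and 2 without STZ mouse 1. The call of Ptgds was lost without Con mouse 1, Con mouse 3, STZ mouse 1 or STZ mouse 2 (adjusted p = 0.127 to 0.133), with no filter (0.0784) and with only STZ and Con in the fit (0.0601), and that of C8g without Con mouse 3 or STZ mouse 1.

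The genes outside the family whose levels across the 18 libraries were most like the mean of 8 members (those at 1 RPKM or more in every library, thus all but Mup11) were Serpina1c (Pearson's r = 0.978), Nudt7 (0.973), Scp2 (0.965), Serpina1a (0.965) and Serpina1d (0.962), among 9223 genes compared. The Serpina1 genes encode copies of alpha-1-antitrypsin and may share reads among themselves, Nudt7 encodes a peroxisomal coenzyme A diphosphatase and Scp2 a sterol carrier protein. Serpina1c was at 10167, 11794 and 10749 RPKM in Con, 1246, 881 and 5428 RPKM in STZ, and 6470, 6639 and 6643 RPKM in A10-FMT. The most opposite were Gpi1 (-0.962), a glycolytic isomerase, 1810010H24Rik (-0.959) and Slc25a5 (-0.954), a mitochondrial ADP/ATP carrier. Gpi1 was at 51.6 to 59.5 RPKM in Con and at 154, 140 and 85.3 RPKM in STZ. The libraries share groups and 1 mouse that stands apart, so these correlations are a description.

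Scaling bore on the direction of the other genes more than on that of the Mup genes. The median log2 difference of all genes in STZ against Con was 0.21 in the values as deposited, 0.17 when all genes other than the members were brought to equal totals, and -0.01 after median-ratio scaling. The share of calls that were higher was 85.7%, 83.2% and 51.4%. The median of the members was -7.24 after median-ratio scaling. The growth hormone axis then gave 6 higher and 4 lower calls, the male-biased genes 15 lower and the female-biased genes 16 higher. Of all 10590 genes tested with this scaling, 1480 were called higher and 1402 lower. Markers of other liver cells went in both directions between STZ and Con. Endothelial markers summed to 59.5 to 76.1 RPKM in STZ against 48.6 to 57.1 RPKM in Con. Stellate markers summed to 116 to 144 against 82.3 to 92.8 RPKM. Kupffer markers, at 147 to 301 against 99.6 to 152 RPKM, had a higher median in STZ (245 against 138), but the ranges overlapped. Lymphocyte markers were lower, at 0.84 to 1.97 against 2.27 to 2.87 RPKM, with no single marker at 1 RPKM in these groups. Cholangiocyte markers overlapped, at 21.7 to 42.1 against 23.3 to 41.4 RPKM. The part of these cells in the differences was not tested. Over all libraries cholangiocyte markers summed to 20.4 to 42.1 RPKM, lymphocyte markers to 0.84 to 3.83 RPKM, erythroid markers to 280 to 9168 RPKM and kidney markers to 0 to 5.23 RPKM.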

How the data were processed

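Liver RNA from 18 mice was sequenced on an Illumina HiSeq instrument. By the methods of the study, the authors mapped reads with SOAPaligner and converted the reads of each gene to RPKM. The submitters' processing notes name Bowtie 0.12.2 and mm10. The deposited RPKM, with no reads or counts, were used for 19057 symbols (3 repeated, 26 resembling dates), and depth is therefore unknown.

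Genes reaching 1 RPKM in 3 or more of the libraries fitted were kept, 1 was added and log2 taken. A mean per group was modelled by lmFit, contrasts.fit and eBayes (trend, two-sided) of limma, version 3.58.1, under R 4.3.3. The 4 groups without AOS doses of their own (12 libraries) formed the main model, and all 18 libraries entered contrasts with AOS or STZ+AOS. P-values were adjusted by Benjamini-Hochberg over all genes, and an adjusted p under 0.05 was a call. In data simulated for STZ against Con, 188 of 200 genes changed by 2 on the log2 scale were recovered among 10482 genes, with 5 false calls. Recovery with as many changed genes as were called in STZ against Con (4087 of 10602) was not tested. Recovery in the libraries themselves, with STZ mouse 3 apart from STZ mice 1 and 2, was not tested either.

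The members and the gene lists were chosen with earlier results of these data known. Besides the members, Ghr, Stat5b, Igf1, Socs2 and Cish were named, together with up to 4 called genes per list with the largest difference in STZ against Con, and the 5 most and 3 least correlated genes; 1 gene that this rule names is not reported here. Igfals, Bcl6, Ambp, Mup4, Mup5, Mup6, Mup9, Mup12, Mup14 and Ctrb1 were named after their values were seen. The lists were growth hormone axis, Mup regulators, male-biased, female-biased and other lipocalin genes and cell markers. Replicates are the 3 mice numbered in the labels. Sequences came from GENCODE M21 and RefSeq. Alternatives covered the pseudocount, filter, scaling, trend, libraries fitted, a replicate block and leaving out libraries; leaving out Con mouse 3 with AOS mouse 3, and all alternatives for A10-FMT against Con-FMT, the AOS effect with and without STZ, and single genes were chosen after seeing the data.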

Additional observations from a re-analysis of the deposited data

How the results depend on the processing

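Of the values for the comparisons, those that moved did so as follows. Called members in STZ against Con were 5 of 9 with only the compared groups in the fit (25.7% of all genes) and 4 to 9 when 1 library was left out (24.2% to 47.4%), with a median log2 difference of -9.91 to -5.65. Against STZ, leaving out 1 library gave 0 to 9 called members for each transplanted group, with 9 only without STZ mouse 3. A filter of 1 RPKM in every library left 9 male-biased genes (7 called) and 3 female-biased genes (3 called), since genes near 0 in a group were removed. Fitting all 6 groups called 5 Mup regulators in place of 3; the cause was not tested. Called other lipocalins were 5, and 2 to 8 when 1 library was left out. In the other settings the counts for members, growth hormone axis, regulator and sex-biased genes stayed within 1.5 times and the medians within 1 SD between mice, but leaving out 1 library took the small medians of STZ+AOS against STZ (-1.73 to 2.57) and A10-FMT against Con-FMT (-0.95 to 0.83) across 0, and median-ratio scaling took the former to -0.02. A pseudocount of 0.1, no filter and limma without trend moved none of these counts and medians past these limits, while no filter and only the compared groups each gave 3 lipocalins.

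Mouse numbers are shared between groups, but no pairing is described. Deviations of same-numbered mice from their group means correlated at -0.249 to 0.472 over 45 pairs of libraries (median 0.0315, 16 over 0.1), so the numbers were not taken as pairs. With a replicate block 9 of 9 members were called in STZ against Con (median -6.98; 35% of all genes called), 11 genes of the growth hormone axis, 15 male-biased, 18 female-biased and 3 regulator genes, and 0 members in the other contrasts. The 3 mice per group and the unknown depth limit every value, and values near 1 RPKM have a sampling error that cannot be given.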
